A study of Mus musculus with 2 samples.

Results

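The Bcl2 family genes described here were 10 of the 35522 features listed in both expression tables of mouse neutrophils, and were found by gene symbol. The set was chosen with earlier results of these data known. They were 6 pro-survival genes (Bcl2a1a, Bcl2a1b, Bcl2a1d, Mcl1, Bcl2 and Bcl2l1) and 4 pro-death genes (Bcl2l11, Bid, Bax and Bak1). Neutrophils high in Ly-6G, positive for CD11b and low or negative for Ly-6C were sorted from mouse bone marrow and kept in culture with GM-CSF, a cytokine that supports myeloid cells, at 10 ng/ml. The PBS-treated group received PBS, and the ELV-treated group received 20 μg/ml of tumor exosomes, each for 3 days. The exosomes were small vesicles shed by sphere-derived cancer stem cells (SDCSCs), that is, cells of the mouse colon carcinoma line CT26 grown as spheroids. Both groups therefore shared the sort, GM-CSF and 3 days of culture, and the exosomes came from 1 cell line. Each group held 1 library, so there was no replicate check, no p-value could be given, and every difference below is between these 2 libraries. Immune cells in the study were isolated from Balb/C mice 5 to 8 weeks old, and whether several mice were pooled is not given in the sources used here.

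Bcl2 family proteins decide whether the outer membrane of the mitochondrion stays closed. The effectors Bax and Bak1 can form pores in it, through which cytochrome c escapes and sets off the caspases that dismantle the cell. Pro-survival proteins such as Mcl1, Bcl-xL (encoded by Bcl2l1) and A1 (encoded by the Bcl2a1 genes) hold the effectors in check, and BH3-only proteins such as Bim (encoded by Bcl2l11) and Bid sense stress and bind the pro-survival proteins or the effectors. Neutrophils are short-lived cells that depend strongly on Mcl1, a protein with a rapid turnover, and they also express A1. GM-CSF is known to delay their death in culture. The comparison asks which transcripts of this machinery differed in neutrophils cultured with tumor exosomes.

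Mouse A1 is encoded by several near-identical copies on chromosome 9, of which 3 are members. In genome build GRCm38 (the same assembly as mm10) with the GENCODE M21 annotation, Bcl2a1d lies at chr9:88723285-88731914 on the minus strand, Bcl2a1a at chr9:88956900-88962419 on the plus strand and Bcl2a1b at chr9:89199209-89207827 on the plus strand. The 3 copies fell within 485 kb. The other members are single genes elsewhere: Bcl2 at chr1:106538178-106714274, Bcl2l11 at chr2:128126038-128162547, Bcl2l1 at chr2:152780668-152831728, Mcl1 at chr3:95658788-95663176, Bid at chr6:120891930-120916853, Bax at chr7:45461697-45466898 and Bak1 at chr17:27019810-27029009. All are annotated as protein coding, and the levels below count reads over their exons. The coding sequences of the 3 Bcl2a1 copies were 516 bases each and differed at 12 positions in all, 6 of which lay in the first 90 bases. Those 90 coding bases are shown because they hold the letters that tell the copies apart, with the positions that differ among the copies in capitals.
Bcl2a1a: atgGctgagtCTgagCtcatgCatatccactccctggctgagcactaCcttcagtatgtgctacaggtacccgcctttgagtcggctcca
Bcl2a1b: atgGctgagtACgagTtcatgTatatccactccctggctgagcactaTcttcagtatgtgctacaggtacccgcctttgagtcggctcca
Bcl2a1d: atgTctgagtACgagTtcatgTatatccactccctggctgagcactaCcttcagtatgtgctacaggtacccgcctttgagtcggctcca
Over the whole coding sequence, Bcl2a1a and Bcl2a1b were 97.9% identical, Bcl2a1a and Bcl2a1d 98.6%, and Bcl2a1b and Bcl2a1d 98.8%. Of all stretches of 50 bases in their transcripts, 31.0% were found in no other gene for Bcl2a1a, 20.8% for Bcl2a1b and 20.5% for Bcl2a1d. At 100 bases these shares were 56.5%, 43.2% and 45.3%. Bcl2a1b also shared 401 exon bases on the same strand with an annotated gene, Gm29094. The way reads that match several copies were assigned is not given in the sources used here, so the split of reads among the 3 copies is uncertain and their sum is given beside them. If such reads were dropped, the sum would be too low as well.

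The promoters of the 4 members that were at least 2-fold higher in ELV-treated neutrophils are shown next, from RefSeq (GRCm38.p6), each running from 250 bases before the start site to 50 bases after it. Capitals mark matches, on either strand, to the letters GAGGAAGT, a form of the site of PU.1 (a myeloid transcription factor), and to TGANTCA. The latter is a loose form of the AP-1 site, in which N is any base.
Bcl2a1a promoter, chr9:88956670-88956969, plus strand: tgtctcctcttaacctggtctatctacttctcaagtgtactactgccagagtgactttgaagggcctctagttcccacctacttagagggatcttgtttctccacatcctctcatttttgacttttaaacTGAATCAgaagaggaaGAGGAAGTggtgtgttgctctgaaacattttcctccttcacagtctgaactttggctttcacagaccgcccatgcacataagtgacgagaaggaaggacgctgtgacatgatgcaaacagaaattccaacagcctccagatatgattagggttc
Bcl2a1b promoter, chr9:89199023-89199322, plus strand: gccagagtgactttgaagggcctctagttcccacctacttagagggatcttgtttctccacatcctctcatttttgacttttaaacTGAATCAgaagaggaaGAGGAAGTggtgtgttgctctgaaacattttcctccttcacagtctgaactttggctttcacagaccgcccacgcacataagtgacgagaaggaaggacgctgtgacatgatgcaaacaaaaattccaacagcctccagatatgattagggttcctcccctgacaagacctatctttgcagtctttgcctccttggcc
Bcl2a1d promoter, chr9:88731801-88732100, minus strand: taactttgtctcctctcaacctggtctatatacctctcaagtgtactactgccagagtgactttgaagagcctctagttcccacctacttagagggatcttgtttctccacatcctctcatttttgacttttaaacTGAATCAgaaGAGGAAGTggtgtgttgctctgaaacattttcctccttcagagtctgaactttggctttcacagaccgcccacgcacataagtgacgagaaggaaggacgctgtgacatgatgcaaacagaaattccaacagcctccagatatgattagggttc
Bak1 promoter, chr17:27028578-27028877, minus strand: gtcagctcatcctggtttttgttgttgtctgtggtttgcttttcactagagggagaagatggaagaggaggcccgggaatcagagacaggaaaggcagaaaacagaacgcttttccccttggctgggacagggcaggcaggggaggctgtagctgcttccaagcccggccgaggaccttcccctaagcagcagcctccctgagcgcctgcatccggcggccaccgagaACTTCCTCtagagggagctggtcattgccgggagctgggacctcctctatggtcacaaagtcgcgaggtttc
The Bcl2a1 promoters were 98.0% to 99.2% identical to each other over the bases that could be aligned, so their matches are copies of the same sequence. RefSeq and GENCODE place some start sites differently, which shifts the windows against the gene positions above. Each of the 3 held 1 PU.1 match, beginning 104 bases before the start site in Bcl2a1a and Bcl2a1d and 148 before it in Bcl2a1b. Each also held 1 match to the loose AP-1 letters farther upstream, TGAATCA, which did not overlap the PU.1 match. Bak1 held 1 PU.1 match, beginning 22 bases before its start site, on the opposite strand. None of the other 6 members, all of which had a promoter in the table, held a PU.1 or AP-1 match. Across 32851 mouse promoters of the same length, 3.20% held the PU.1 letters and 7.81% the AP-1 letters. Also searched were the STAT letters TTCNNNGAA, the CRE letters TGACGTCA and the NF-kB site called kB, which were found in 8.30%, 1.79% and 4.51% of promoters. Among the members only Bcl2l1 had any of these, 1 kB match in 1 of its alternative promoters. The letters were picked after the Bcl2a1 promoters had been read. A match describes these letters only, and no binding was measured. A lack of matches describes only these windows, since sites more than 250 bases before a start site were not searched.

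Levels are RPKM, the reads of a gene scaled by the length of its exons and by the mapped reads of the library, as deposited. Genes with 0.25 RPKM or more in each library were kept, and a gene was called higher or lower at an ELV to PBS ratio of at least 2 or at most 0.5. Of the 35522 features, 9698 were kept. Of these, 31.5% were called higher and 5.62% lower, and the median log2 ratio was 0.53, so a typical gene kept stood 1.44 times higher in the ELV-treated library. This shift depended on level, from a median log2 ratio of 1.11 among genes between 0.802 and 1.49 RPKM to 0.01 in the highest of 10 level bins. In the lowest bin, from 0.25 to 0.802 RPKM, it was 0.52, and there the filter limits how large a ratio can be. With the median of the genes at the same level set to 0 (level-matched below), 13.3% were called higher and 13.4% lower. The estimated depth was 66.0 M mapped reads in PBS and 79.1 M in ELV, where M stands for mega. All 14 neutrophil markers were kept, and their summed level was 84142 RPKM in PBS and 31345 in ELV, with 10 called lower and 1 higher. The 13 monocyte or macrophage markers found in the tables were all higher in ELV and summed to 165 and 466 RPKM, with 5 of the 7 kept called higher. B cell markers summed to 108 and 66.9 RPKM, T or NK cell markers to 57.7 and 7.73 (of which Cd3d alone was 56.4 and 7.02, with Cd3e and Cd8a at 0.06 RPKM or less in both), erythroid or platelet markers to 24.8 and 25.7, eosinophil markers to 10.7 and 5.54, dendritic cell markers to 4.81 and 2.64, basophil or mast cell markers to 2.66 and 2.94, and epithelial markers to 0.590 and 0.205 with Krt8 at 0 in both. In bulk RNA, fewer cells of a type and less RNA per cell cannot be told apart. The part of these markers in the results on the Bcl2 family was not tested.

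Of the 10 members, 9 were kept. Bcl2a1a, Bcl2a1b, Bcl2a1d and Bak1 were called higher, Bid was called lower, and Mcl1, Bcl2l1, Bcl2l11 and Bax lay within 2-fold. Thus 4 of 9 were higher against a background of 31.5%, and 1 of 9 lower against 5.62%. The median log2 ratio of the 9 was 0.62, beside 0.53 for all genes kept, and 0.45 level-matched. Level-matched, 3 were called higher, the Bcl2a1 genes, against a background of 13.3%, and Bid remained the 1 called lower, against 13.4%. The 3 Bcl2a1 genes are near-identical copies that can share reads, so they are not 3 separate results in these counts. Among the members called, Bid thus differed in direction from the Bcl2a1 genes and Bak1.

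**Figure D1:**
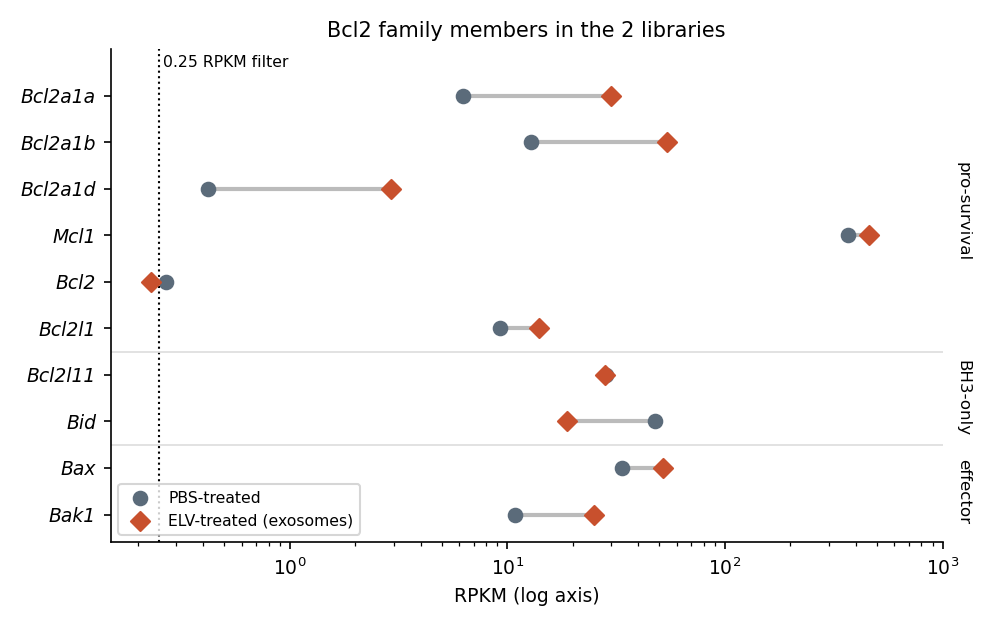
RPKM of the 10 members in the PBS-treated (circles) and ELV-treated (diamonds) libraries on a log axis, with 1 library per group, grouped as pro-survival, BH3-only and effector genes. The Bcl2a1 genes lie to the right in ELV, Bid lies to the left, falling from 47.9 to 18.7, and Mcl1 stands above the rest in both at 369 and 461.

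Mcl1 was the most abundant member in both libraries, at 368.75 RPKM in PBS and 460.76 in ELV. It ranked 107 of 9976 genes at or above 0.25 RPKM in PBS and 68 of 10429 in ELV. Its ratio was 1.25 (log2 ratio 0.32, 95% counting interval 0.31 to 0.33), at percentile 40.7 of the genes kept. This interval and those below come from reads estimated from RPKM, gene length and depth, and cover counting error only. Mcl1 thus stood below the typical gene in its ratio although its RPKM was higher in ELV. With the median of all genes kept set to 0 its log2 ratio was -0.20, and level-matched it was 0.31, so its direction depended on the scaling. All of its 50-base stretches were unique to it.

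The Bcl2a1 genes rose the most among the members. Bcl2a1a stood at 6.25 RPKM in PBS and 29.94 in ELV, a ratio of 4.79 (log2 ratio 2.26, counting interval 2.09 to 2.43). Bcl2a1b stood at 12.84 and 54.32, a ratio of 4.23 (log2 ratio 2.08, 1.96 to 2.20). Bcl2a1d, far less abundant, stood at 0.42 and 2.92, a ratio of 6.95 (log2 ratio 2.80, 2.17 to 3.46) that rests on about 24 and 199 reads. All 3 were higher in the ELV-treated library, at percentiles 94.4, 92.4 and 97.8 of the ratios of all genes kept. Their summed level was 19.51 RPKM in PBS and 87.18 in ELV, a ratio of 4.47 (log2 ratio 2.16, 2.07 to 2.26). A ratio of at least 4 was reached by 8.52% of the genes kept. Level-matched, their log2 ratios were 1.89, 1.91 and 1.68. The value of Bcl2a1d moved the most, since the median log2 ratio of genes at its level was 1.11. The order of the copies was the same in both libraries, with Bcl2a1b at 2.05 times Bcl2a1a in PBS and 1.81 times in ELV. A further copy, Bcl2a1c, stood at 0.07 and 0.14 RPKM and was not kept.

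Bcl2l1, which encodes Bcl-xL, stood at 9.29 RPKM in PBS and 13.93 in ELV. Its log2 ratio was 0.58 (0.49 to 0.67), at percentile 52.7, and its level-matched log2 ratio was 0.21. Bcl2, the founding member of the family, stood at 0.27 and 0.23 RPKM and missed the filter in ELV. Its log2 ratio of -0.23 rested on about 128 and 131 reads, and its counting interval, -0.59 to 0.13, included 0. Neither gene passed the 2-fold rule, and Bcl2 was the least abundant member in each library.

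Among the BH3-only members, Bid fell and Bcl2l11 lay near a ratio of 1. Bid, whose protein is activated by caspase-8 after death receptors are engaged, stood at 47.89 RPKM in PBS and 18.73 in ELV, 2.56-fold lower (log2 ratio -1.35, -1.41 to -1.30). Only 3.37% of the genes kept had a ratio as low or lower, and its level-matched log2 ratio was -1.52. In PBS it was the most abundant pro-death member and in ELV the least. Bid shares 628 exon bases, 17.7% of its own, with Bcl2l13 on the opposite strand, and the library kit is not stated to keep strand, so reads from the overlap cannot be assigned by it. Bcl2l13 stood at 3.98 and 5.83 RPKM, well under Bid in both libraries. Bcl2l11 stood at 28.42 and 28.07 RPKM (log2 ratio -0.02, -0.06 to 0.02), at percentile 26.4. Its level-matched log2 ratio was -0.19.

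The effectors were both higher in ELV, though only Bak1 passed the 2-fold rule. Bak1 stood at 10.82 RPKM in PBS and 25.04 in ELV, a ratio of 2.31 (log2 ratio 1.21, 1.13 to 1.29). With the shift at its level removed the log2 ratio was 0.90, and it was no longer called. Bax stood at 33.63 and 51.65 RPKM, a ratio of 1.54 (log2 ratio 0.62, 0.55 to 0.69), and 0.45 level-matched. Bak1 and Bax stood at percentiles 75.3 and 54.1 of the ratios. Bak1 shares 25.5% of its exon bases with Ggnbp1 on the opposite strand, which stood at 0.67 and 0.50 RPKM. Bax shares 12.2% with Gm45808 on the same strand.

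**Figure D2:**
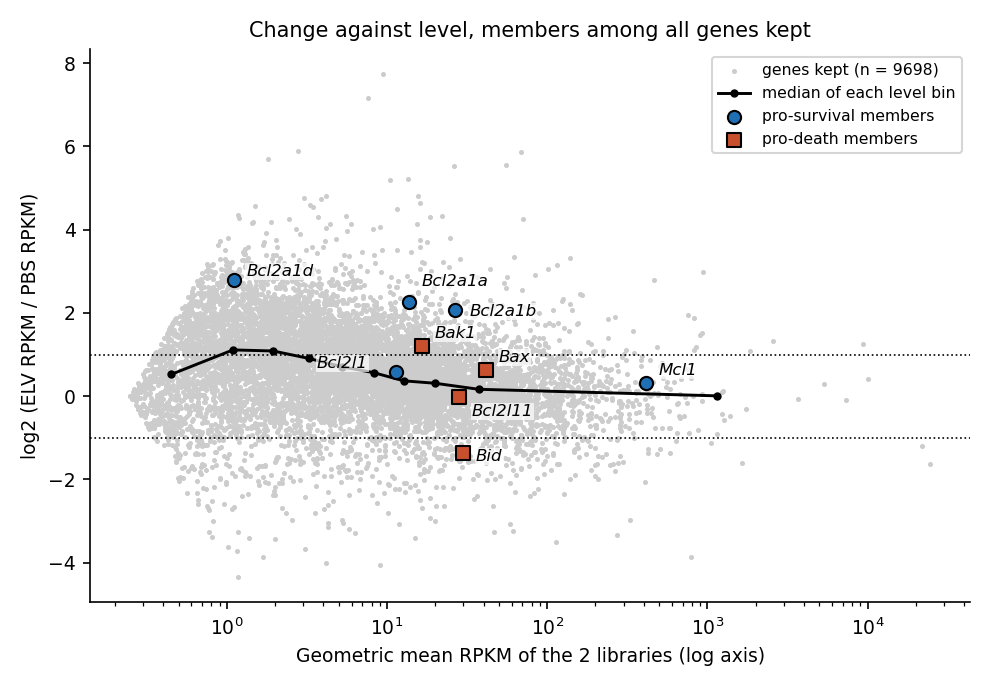
Log2 ratio of ELV over PBS RPKM against the geometric mean RPKM (log axis) for the 9698 genes kept (grey), with the median of each of 10 level bins (black line) and the 9 members kept in colour. The 3 Bcl2a1 genes and Bak1 lie above the dotted line of a 2-fold rise, Bid lies below that of a 2-fold fall at -1.35, and Mcl1 lies near the line of medians at 0.32.

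Ratios between members within a library do not depend on a single scaling factor between libraries. A shift that differs by level, such as that removed by level matching, would move their changes. The median log2 ratio of genes at the level of Bcl2a1d was 1.11, and at the level of Bid 0.17. The changes in ratios below are not level-matched. The summed level of the 6 pro-survival genes was 397.82 RPKM in PBS and 562.10 in ELV, and that of the 4 pro-death genes was 120.76 and 123.49. The pro-survival to pro-death ratio was therefore 3.29 in PBS and 4.55 in ELV, 1.38 times higher (0.47 on the log2 scale). Mcl1 held 92.7% of the pro-survival level in PBS and 82.0% in ELV, and the 3 Bcl2a1 genes held 4.90% and 15.5%. All 50-base stretches of Mcl1 were unique to it, against 20.5% to 31.0% for the Bcl2a1 genes. If reads matching several copies were dropped, the Bcl2a1 share would be too low. The sums and ratios that use these genes carry the same limit. The pro-death level was nearly the same in sum but differently made up. Bid held 39.7% of it in PBS and 15.2% in ELV, Bax 27.8% and 41.8%, Bak1 8.96% and 20.3%, and Bcl2l11 23.5% and 22.7%. The direction of this balance rested on Bid: without it the log2 change of the ratio was -0.02. RPKM sums weigh the members by transcript level and say nothing of protein or of binding strength.

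Taken pair by pair, there are 24 ratios of a pro-survival to a pro-death member. Of these, 17 were higher in ELV, 14 of them at least 2-fold, and 7 were lower, 1 of them at least 2-fold. The changes ran from -1.44 on the log2 scale for Bcl2 over Bak1 to 4.15 for Bcl2a1d over Bid. The pairs share members and are not independent of each other. Mcl1 stood at 7.70 times Bid in PBS and 24.6 times in ELV. Against Bak1 it moved the other way, from 34.1 to 18.4 times, and against Bax from 11.0 to 8.92 times. Bid stood at 1.69 times Bcl2l11 in PBS and at 0.667 times in ELV. Every pair with Bid in the denominator was higher in ELV, and so was every pair with a Bcl2a1 gene in the numerator, which follows from their own changes.

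**Figure D3:**
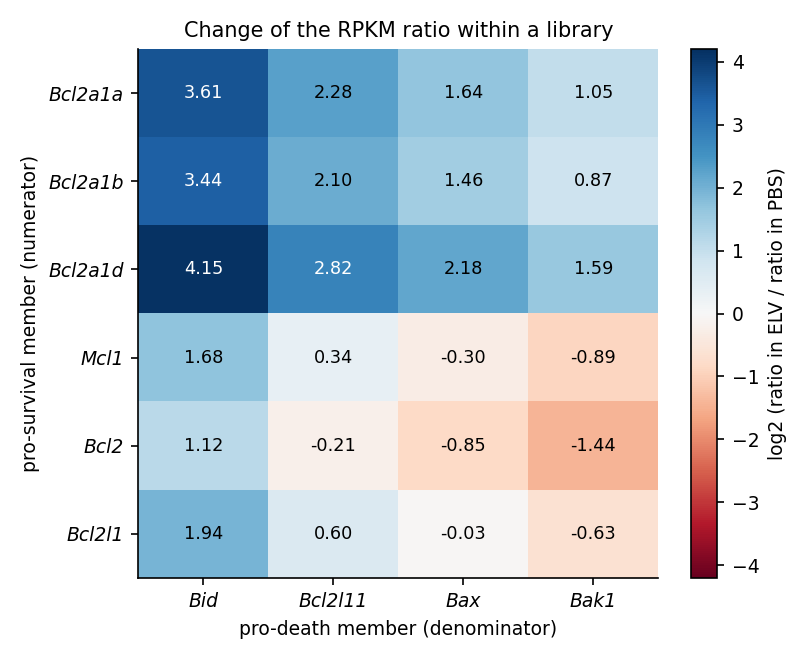
Change in the ratio of each pro-survival member (rows) to each pro-death member (columns) within a library, as log2 of the ratio in ELV over that in PBS, with 1 library per group. Blue cells, 17 of 24, are higher in ELV, and the red cells lie among Mcl1, Bcl2 and Bcl2l1 over Bcl2l11, Bax and Bak1, down to -1.44. That lowest value is for Bcl2, which missed the filter in ELV.

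The other Bcl2 family genes, 16 by the list used, included 8 that were kept, of which 3 were called higher and 1 lower, beside 31.5% and 5.62% of all genes kept, with a median log2 ratio of 0.65 (0.26 level-matched). The BH3-only genes Bbc3 and Pmaip1 went opposite ways. Bbc3, which encodes the potent BH3-only protein Puma, fell from 8.28 RPKM in PBS to 3.38 in ELV, 2.45-fold lower (log2 ratio -1.29, -1.45 to -1.14). Pmaip1, which encodes Noxa, a BH3-only protein that binds Mcl1 and A1, rose from 12.71 to 36.49 RPKM (log2 ratio 1.52, 1.45 to 1.59). Mcl1 thus stood at 29.0 times Pmaip1 in PBS and 12.6 times in ELV. Bmf, a BH3-only gene linked to cell attachment, rose from 1.46 to 4.42 RPKM, and Bcl2l12 rose from 1.06 to 3.87. Level-matched, Bbc3 stood at -2.00 and Pmaip1 at 1.21, whereas Bmf (0.51) and Bcl2l12 (0.78) were no longer called. Within 2-fold were Bad (4.27 and 4.84 RPKM), Bcl2l13 and the mitophagy genes Bnip3 (51.40 and 86.39) and Bnip3l (55.57 and 56.26). Below the filter were Bcl2l2 (0.19 and 0.62 RPKM), Bcl2a1c, Bcl2l14 (0.01 and 0.05), Bcl2l15 (0.34 and 0.17) and Hrk, with about 1 read in each library. Bok, an effector, and Bik and Bcl2l10 were listed at 0 in both. Over the 6 BH3-only genes kept from both lists, 2 were called higher and 2 lower, beside 31.5% and 5.62% of all genes kept. Level-matched, 1 was higher and 2 lower, beside 13.3% and 13.4%. The share called higher, 33.3%, was near that of all genes kept.

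**Figure D4:**
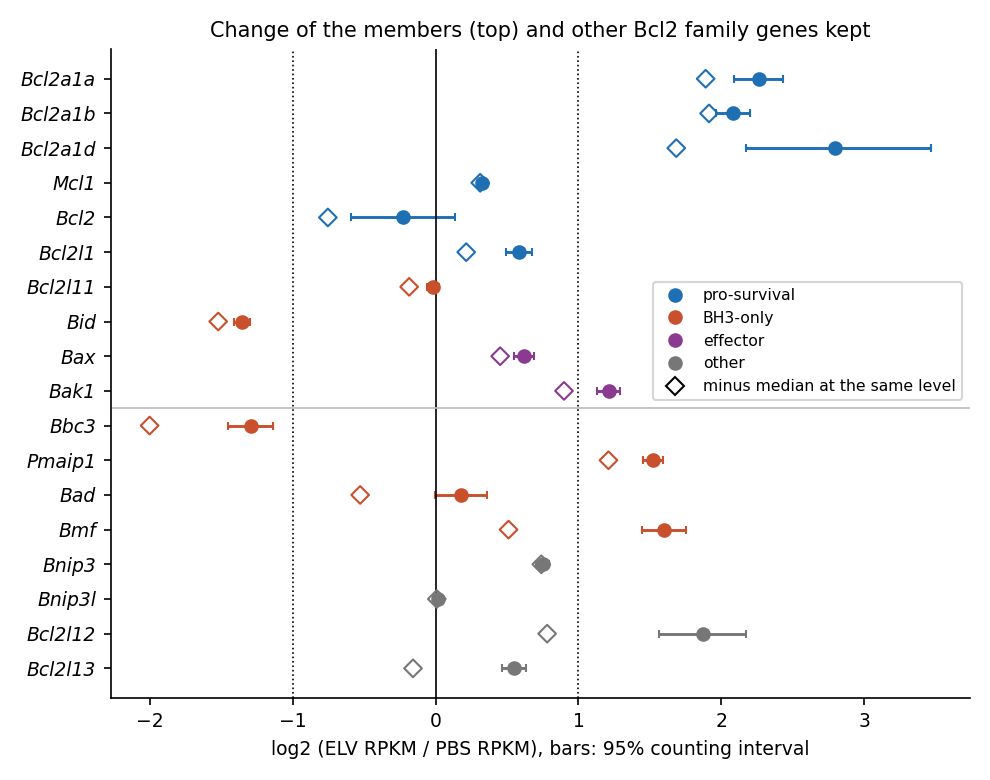
Log2 ratio of ELV over PBS RPKM with its 95% counting interval (filled points and bars) and after subtracting the median of genes at the same level (open diamonds), for the 10 members above the line and the 8 other family genes kept below it; dotted lines mark 2-fold. Bcl2 is drawn although it was not kept, and Bak1, Bmf and Bcl2l12 cross the 2-fold line when the shift at their level is removed.

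Downstream of the effectors lie the proteins released from the mitochondrion, the apoptosome and the caspases. Of 22 genes listed, 18 were kept, 9 were called higher, beside 31.5% of all genes kept, and none lower, beside 5.62%. The median log2 ratio was 0.79 and the level-matched median 0.26. Level-matched, 3 were called higher, beside 13.3% of all genes kept. Cycs, cytochrome c, rose from 3.66 RPKM in PBS to 8.62 in ELV. Diablo (4.77 and 11.63) and Htra2 (12.63 and 26.47), which release caspases from their inhibitors, also rose, as did Aifm1 (2.01 and 4.84) and the channel gene Vdac3 (9.91 and 30.14). The scaffold Apaf1 (12.28 and 17.62 RPKM) and the initiator Casp9 (11.69 and 13.64) lay within 2-fold. Casp6, a caspase gene, rose from 0.98 to 3.10 RPKM. Among inhibitors, Birc3 (cIAP2) rose from 63.07 to 149.27 RPKM and Naip5 from 0.87 to 2.43, and Xiap stood at 23.99 and 29.51. Level-matched, Vdac3 (log2 ratio 1.29) and Birc3 (1.23) were still called, whereas Cycs (0.53), Diablo (0.72), Htra2 (0.76), Aifm1 (0.36), Casp6 (0.57) and Naip5 (0.37) were not.

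Upstream of Bid, 7 of 8 genes of the death receptor route were kept. Of these, 4 were called higher, beside 31.5% of all genes kept, and none lower, beside 5.62%. The median log2 ratio was 1.10 (0.93 level-matched). The receptor Fas rose from 67.20 RPKM in PBS to 153.62 in ELV, its adaptor Fadd from 0.25 to 1.45 and Casp8, which cleaves Bid, from 3.57 to 11.55. Cflar, which encodes the caspase-8 inhibitor c-FLIP, rose from 22.63 to 48.49. The receptor Tnfrsf1a stood at 189.88 and 127.54 RPKM, a log2 ratio of -0.57. Level-matched, Fas (log2 ratio 1.18) and Fadd (2.01) were still called, 2 of 7 beside 13.3% of all genes kept, whereas Casp8 (0.99) and Cflar (0.93) were not. Fadd stood at the filter in PBS, with about 64 reads, and fell in the lowest level bin, whose median was 0.52. Thus Bid was lower in the same library in which Fas and Fadd were higher.

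GM-CSF, present in both cultures, signals through Csf2ra and Csf2rb to Jak2, Stat5 and the Pim kinases. Of 16 genes listed for this route, among them the near copy Csf2rb2, 14 were kept and 4 were called higher, close to the 31.5% called higher among all genes kept. None was called lower, beside 5.62%. The median log2 ratio was 0.23, below that of all genes kept. Level-matched, 4 were called higher as well, beside 13.3%, with a median of 0.04. The shared receptor chain Csf2rb rose from 60.91 RPKM in PBS to 129.08 in ELV and its near copy Csf2rb2 from 1.42 to 22.17. Csf2rb2 is among the 4 called higher, though it is not a chain named above for GM-CSF signalling. The copies are alike in sequence, and reads could be split between them. The ligand-specific chain Csf2ra stood at 291.79 and 194.36 RPKM. The kinase gene Pim2 rose from 6.68 to 21.76, whereas Pim1 stood at 103.69 and 119.68. Jak2 (26.98 and 32.09 RPKM), Stat5a (4.15 and 7.15) and Stat5b (32.74 and 30.94) lay within 2-fold. Socs3, a feedback inhibitor of cytokine receptors, rose from 22.41 to 73.26, and the Stat5 feedback genes Cish and Socs2 were below the filter in both libraries.

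NF-kB is known to drive survival genes, A1 among them. All 15 genes of this list, which left out the Bcl2a1 genes, were kept and had higher RPKM in ELV. So did most genes kept, since a log2 ratio of 0.002, that of Stat3, lay at percentile 27.1. Of the 15, 8 were called higher, beside 31.5% of all genes kept. The median log2 ratio was 1.10 and the level-matched median 0.90. Level-matched, 5 were called higher, beside 13.3%, and Relb (log2 ratio 0.94), Traf1 (0.75) and Cflar (0.93) no longer were. On that scale Traf2 lay below 0 (log2 ratio -0.21) and the rest above. Among the subunits, Nfkb1 rose from 23.69 RPKM in PBS to 67.46 in ELV, Nfkb2 from 42.40 to 96.51 and Relb from 24.70 to 53.13. Rela stood at 53.73 and 57.48 RPKM and Rel at 14.42 and 28.05. Of the targets, Sod2, the mitochondrial superoxide dismutase, rose from 30.38 to 228.13 RPKM, Traf1 from 3.60 to 9.93 and the inhibitor gene Nfkbia from 211.03 to 454.95. Birc3 and Cflar, given above, are in this list too. Tnfaip3 (40.23 and 75.77 RPKM) and Gadd45b (56.25 and 100.42) lay just within 2-fold.

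Because the level of Mcl1 protein is set largely by its turnover, the genes for the enzymes involved were listed. Of 9 genes, 8 were kept and none passed the 2-fold rule, beside 31.5% higher and 5.62% lower among all genes kept. Their median log2 ratio was -0.02 (-0.38 level-matched). The ligase genes Huwe1 (7.03 and 10.24 RPKM) and Fbxw7 (4.89 and 3.80), the deubiquitinase gene Usp9x (13.81 and 12.94) and the stabiliser gene Tpt1 (444.44 and 459.88) all lay within 2-fold. Level-matched, Fbxw7 (log2 ratio -1.07) was the 1 gene of the 8 called lower, beside 13.4% of all genes kept. None was called higher level-matched, beside 13.3%. Of the p53 and Foxo genes that are known to act on BH3-only genes, 8 of 10 were kept, 1 was called higher and 1 lower, beside 31.5% and 5.62% of all genes kept, with a median log2 ratio of -0.18 (-0.52 level-matched). Cdkn1a, a p53 target, rose from 5.29 RPKM in PBS to 12.77 in ELV. Ddit3, the stress factor CHOP, fell from 83.99 to 23.52. Level-matched, none was called higher, beside 13.3%, with Cdkn1a at 0.71. On that scale 2 were called lower, beside 13.4%, Ddit3 (-2.00) and Foxo1 (-1.33), which stood at 2.37 and 2 RPKM. Trp53 itself stood at 5.92 and 11.51 RPKM, and Foxo3 at 29.79 and 23.03. E2f1 stood at 0.24 and 1.11 RPKM and just missed the filter.

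**Figure D5:**
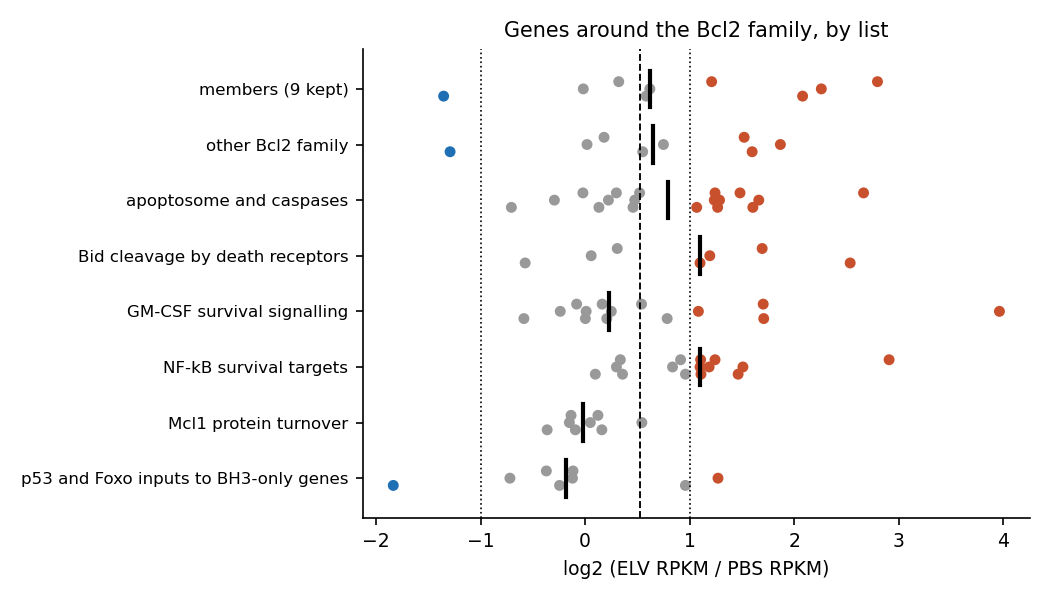
Log2 ratio of ELV over PBS RPKM for each gene kept of the members and of 7 lists around the Bcl2 family (points; red called higher, blue called lower, grey within 2-fold), with the median of each list (black bars), the median of all genes kept at 0.53 (dashed) and 2-fold (dotted). On the deposited scale no gene of the Mcl1 turnover list lies beyond the 2-fold lines. All 15 NF-kB genes lie above 0 there, as do most genes kept.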

How the data were processed

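RNA of PBS-treated and ELV-treated (exosome-treated) mouse neutrophils was extracted with TRIzol, made into TruSeq mRNA libraries and sequenced, with 1 library per group. The authors used CLC Genomics Workbench 8.0 to quality-trim and analyse the reads, and deposited RPKM values (reads scaled by exon length and by the mapped reads of the library), 1 per feature. The submitters' processing notes name the build mm10. The annotation, the read length, how multi-mapping reads were handled and any scaling between libraries are not given in the sources used here. RPKM above 0.01 was rounded, which limits ratios of low genes.

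No count model was fitted, since RPKM is not a read count. Genes at an RPKM of at least 0.25 in both libraries were kept and called at a ratio of at least 2 or at most 0.5, with no pseudocount. Depth was estimated from values under 0.01 RPKM, many of which stand for 1 read, with the longest GENCODE M21 transcript as length: 224 of 918 such features gave 66.0 M reads (M, mega) in PBS and 257 of 1064 gave 79.1 M in ELV. Intervals of 95% are exact Clopper-Pearson intervals of the estimated reads and cover counting error only. Level matching subtracted the median log2 ratio of the genes in the same of 10 level bins. Scripts were tested on simulated data. Python 3.11.15, numpy 2.4.6, pandas 2.3.3, scipy 1.17.1 and matplotlib 3.10.9 were used.

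The members, the gene lists and the rule for names were chosen with earlier results of these data known. All members and other family genes were named or counted, and from the other lists genes that changed at least 2-fold at an RPKM of at least 1 in a library, receptors and core components. Some genes that this rule would name are not reported here, though they stay in the counts and medians of their list. Alternatives were scaling by the median of genes kept, a trimmed mean (30% of ratios and 5% of levels), level bins, TPM or Gapdh, pseudocounts of 0.25 and 1, other filters, a 4-fold rule, and other sums of members.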

Additional observations from a re-analysis of the deposited data

How the results depend on the processing

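Single libraries limit every value here, since variation between cultures and mice was not measured. The count of 4 members called higher and 1 called lower stayed within 1.5 times under the alternatives tried, except that at a 4-fold rule 0 members were lower. The median log2 ratio of the members, 0.62, was 0.0927 with the median of genes kept set to 0, 0.0776 with a trimmed mean removed, 0.452 level-matched, 0.27 relative to Gapdh, 0.67 as TPM, 0.62 and 0.60 with pseudocounts of 0.25 and 1, and 0.60 with a filter of 1 RPKM or none but an RPKM above 0. The scalings differ from the deposited RPKM by 0.53 for the median and 0.54 for the trimmed mean on the log2 scale. The Gapdh scaling rests on 1 gene, at only 11.85 RPKM in PBS and 15.06 in ELV, and is a weak check. Mcl1 ranged from -0.22 to 0.37 and Bcl2l11 from -0.56 to 0.03 on the log2 scale, so their direction was set by the scaling, whereas the 3 Bcl2a1 genes stayed at 1.46 or above and Bid at -1.31 or below. Bak1 ranged from 0.67 to 1.26 and was no longer called under most scalings. The summed Bcl2a1 log2 ratio, 2.16, was 2.26 for Bcl2a1a alone, 2.80 for Bcl2a1d alone, 1.63 with the median set to 0, 1.62 with the trimmed mean removed, 1.99 level-matched and 1.81 relative to Gapdh. The log2 change of the pro-survival to pro-death ratio, 0.47, was 1.77 without Mcl1, 0.30 without the 3 Bcl2a1 genes, 0.27 with other family genes added and 1.19 as geometric means. Without Bid, an alternative chosen after seeing the data, it reversed to -0.0250. Of 98 values for single members under the alternatives, 58 kept their call and stayed within the 95% counting interval of the deposited ratio, 34 kept their call but lay outside that interval, 6 were no longer called and 0 called values reversed. The 98 leave out Bcl2a1d and Bcl2 under the filter of 1 RPKM, which both missed. Bcl2a1d, at 0.42 RPKM in PBS, was thus not called under that filter.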
